A study of Mus musculus with 12 samples.

Results

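Heat shock chaperones were followed here through 10 genes, taken by symbol from the 56923 genes of the count table: the HSP70 proteins Hspa1a, Hspa1b and Hspa8, their helpers Hsph1, Dnajb1 and Bag3, Hsp90aa1, the small heat shock protein Hspb1, and the mitochondrial chaperonin genes Hspd1 and Hspe1. All 10 had counts in every library, and all 10 were among the 16839 genes that passed the filter on low counts. RNA was sequenced from livers of 12 wild-type C57BL/6J mice, 3 in each of 4 groups, aged 6 weeks at the start. Every mouse, controls included, received carbon tetrachloride (CCl4), a liver toxin that causes scarring when given repeatedly, as 200 µL of a 7.5% solution in olive oil injected into the peritoneum 2 times a week for 6 weeks. The control group had CCl4 alone (0 mg/kg curcumin), and the low, medium and high groups also had curcumin, the yellow polyphenol of turmeric, at 25, 50 and 100 mg/kg by daily gavage for 2 weeks. The labels do not say whether control mice had a gavage without curcumin, and they put 3 mice in a cage, so that cage and group may coincide. No liver without CCl4 was analysed here.

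Chaperones bind unfolded protein chains and help them fold or be removed. HSP70 works in cycles of ATP use that J-domain proteins such as Dnajb1 start and that exchange factors such as Hsph1 and Bag3 reset. HSP90 takes over late folding steps of kinases and steroid receptors, and Hspd1 with its lid Hspe1 folds proteins inside mitochondria. In stressed cells the heat shock factor HSF1 binds inverted repeats of the letters GAA before the start of many of these genes and raises their transcription, and in liver such induction is known from heat, toxins and protein overload.

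All 10 hepatocyte markers, such as albumin, had counts in every library. The libraries held 36015134 to 70376474 counts, of which 30.3% to 64.7% fell on mitochondrially encoded genes. Together with 11 nuclear genes near-identical to these, they took 41.2% to 87.0%, which left 5180318 to 36377767 counts on all other genes. The share of mitochondrially encoded genes alone was under 50% in 4 libraries (low replicate 3, medium replicate 1, high replicates 1 and 3). It was over 50% in the other 8, all 3 controls among them. Levels are given as TMM-normalised CPM, which are counts scaled for the size and the composition of each library. In bulk tissue, fewer cells of a type and less RNA per cell cannot be told apart.

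Stretches before the start of 5 of the genes are shown because they hold the repeats that HSF1 reads. Of the 10 genes, 8 matched an entry of the RefSeq promoter windows (build GRCm38.p6, 250 bases before and 50 after the start), and Hspa8 and Hsp90aa1 did not. Capitals mark GAANNTTC or TTCNNGAA, both palindromes, which therefore read the same on either strand.
Hspa1a, chr17:34972227-34972286, minus strand: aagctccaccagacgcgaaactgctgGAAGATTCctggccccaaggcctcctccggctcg
Hspa1b, chr17:34959309-34959368, minus strand: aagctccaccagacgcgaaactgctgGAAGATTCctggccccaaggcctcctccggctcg
Hsph1, chr5:149636337-149636396, minus strand: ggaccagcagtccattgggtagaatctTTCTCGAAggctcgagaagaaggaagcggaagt
Hspb1, chr5:135887789-135887848, plus strand: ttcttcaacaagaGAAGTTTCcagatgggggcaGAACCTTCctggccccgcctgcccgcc
Hspe1, chr1:55088053-55088082, plus strand: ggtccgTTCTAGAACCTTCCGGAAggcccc
The Hspa1a and Hspa1b stretches were identical, and over the 250 bases before the start 247 were the same (98.8%). Hsph1 held 1 match and Hspb1 held 2. In the Hspe1 stretch 3 matches overlapped, and the same bases, read on the opposite strand, lie before the start of its neighbour Hspd1, so these genes share 1 stretch rather than holding separate ones. Either motif of 8 letters was present in 6 of 8 genes with a window, against 14.5% of 27025 genes with a window. GAANNTTC alone was present in 5 of 8 (7.73% of all genes) and TTCNNGAA alone in 3 of 8 (8.11%), with Hspd1 and Hspe1 holding both. The longer run of 3 alternating units (GAA, TTC and GAA, or TTC, GAA and TTC, each NN apart, searched on both strands) was present in 2 of 8, again Hspd1 and Hspe1, against 0.514%. The windows of Dnajb1 and Bag3 held neither 8-letter motif. In these counts the shared Hspd1 and Hspe1 stretch and the nearly identical Hspa1a and Hspa1b windows each count for both genes. The 10 genes were listed as HSF1-driven and mitochondrial chaperones. A share above that of all genes was therefore likely beforehand and is not a result. The motifs are matches of letters, and no binding was measured.

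Per kilobase of transcript, the genes spanned a wide range of levels. Hspa8, the constitutive HSP70 of every cell, stood highest, with a median over the 12 libraries of 93.2 CPM per kb, followed by Hspe1 at 22.8, Hspd1 at 19.5, Hsp90aa1 at 5.03, Hspb1 at 4.68, Hsph1 at 4, Bag3 at 3.31, Dnajb1 at 2.87, Hspa1b at 1.18 and Hspa1a at 0.32. Hspa8 lay above Hspe1, Hspd1 above Hsp90aa1 and Hspa1b above Hspa1a in 12 of 12 libraries. The order of Hspa1b and Hspa1a may depend on how reads that fit both were counted, which is not known. Other neighbours in this order were not separated beyond their spread: the upper gene was the higher one in 8 of 12 libraries for Hspe1 over Hspd1, 7 for Hsp90aa1 over Hspb1, 6 for Hspb1 over Hsph1, 7 for Hsph1 over Bag3, and 9 each for Bag3 over Dnajb1 and Dnajb1 over Hspa1b. Hspa8 alone took 56% to 72.2% of the counts of the 10 genes. The highest library exceeded the lowest 32.3-fold for Hspa1a and 1.99-fold for Hspd1, the ends of the range.

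**Figure D1:**
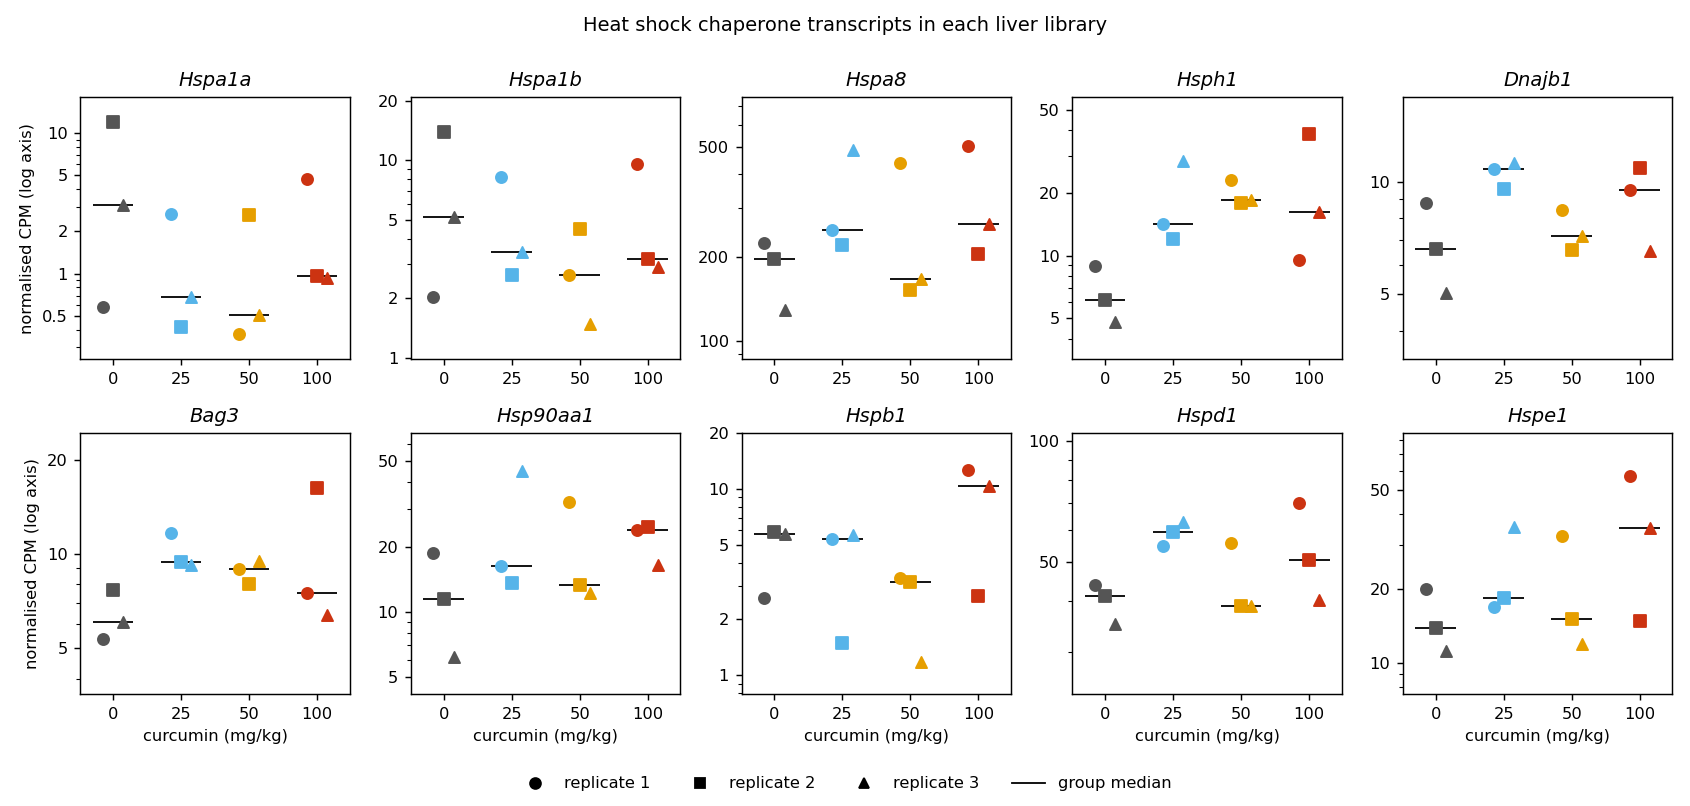
Normalised CPM (log axis) of each chaperone gene in each of the 12 livers, by curcumin dose (0 mg/kg is CCl4 alone). Points are libraries, with the shape giving the replicate number, and lines are group medians. Hsph1 is the gene in which all 9 curcumin livers lie above all 3 control livers, while the Hspa1a controls spread over nearly the whole panel.

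Against control, no chaperone gene passed an adjusted p of 0.05 at any dose, for the mean of the 3 doses, for the slope on dose, or among the doses. The test was edgeR's quasi-likelihood test with Benjamini-Hochberg adjustment over all 16839 genes, of which 0 (0%) passed in each of these comparisons. At an unadjusted p under 0.05 it gave 1008 genes (5.99%) for low, 940 (5.58%) for medium, 2152 (12.8%) for high, 1577 (9.37%) for the mean of the doses, 1853 (11%) for the slope and 614 (3.65%) among the doses. DESeq2 called 42, 89, 172, 165, 64 and 16 genes in the same order, and limma voom with library weights 0, 35, 224, 66, 0 and 0. Of the 10 genes, both tools called Hsph1 alone, as given with its values. All comparisons with control share the same 3 control livers, so their values are not independent.

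Most of the 10 genes were nevertheless somewhat higher with curcumin. The fitted log2 fold change was above 0 for 7 genes at low, 7 at medium and 8 at high dose, where 51.1%, 51.9% and 52.2% of all tested genes were above 0. The members' median log2 fold change was 0.64 at low, 0.28 at medium and 0.74 at high dose, against 0.01, 0.02 and 0.03 over all tested genes. These medians depended on single libraries and on the tool: without medium replicate 1 the medium median was -0.09, with 4 of 10 genes above 0, below the -0.02 of all genes, and with limma voom it was 0.06. The low median was 0.33 without low replicate 3, and the high median was 0.42 without high replicate 1 and 0.33 with limma voom. For the mean of the doses 7 were above 0 (50.9% of all genes) with a median of 0.49 against 0.01, and for the slope 8 (52.4%) with a median of 0.49 against 0.03. Scaled to library totals, the median of all genes itself shifted by 0.11, 0.47 and 0.71, and the members' medians were 0.72, 0.75 and 1.27. Scaled to totals without mitochondrial genes and their nuclear copies, the shifts were -0.14, -0.08 and -0.25 and the members' medians 0.47, 0.14 and 0.43. Only the paired genes Hspa1a and Hspa1b were lower at all 3 doses in the main fit. With library totals as the scale, Hspa1b stood at 0.35 at the high dose. Without control replicate 2, Hspa1b was 0.39 at low, -0.32 at medium and 0.54 at high dose. Hspa1a was then -0.60, -0.66 and 0.27 in the same order.

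**Figure D2:**
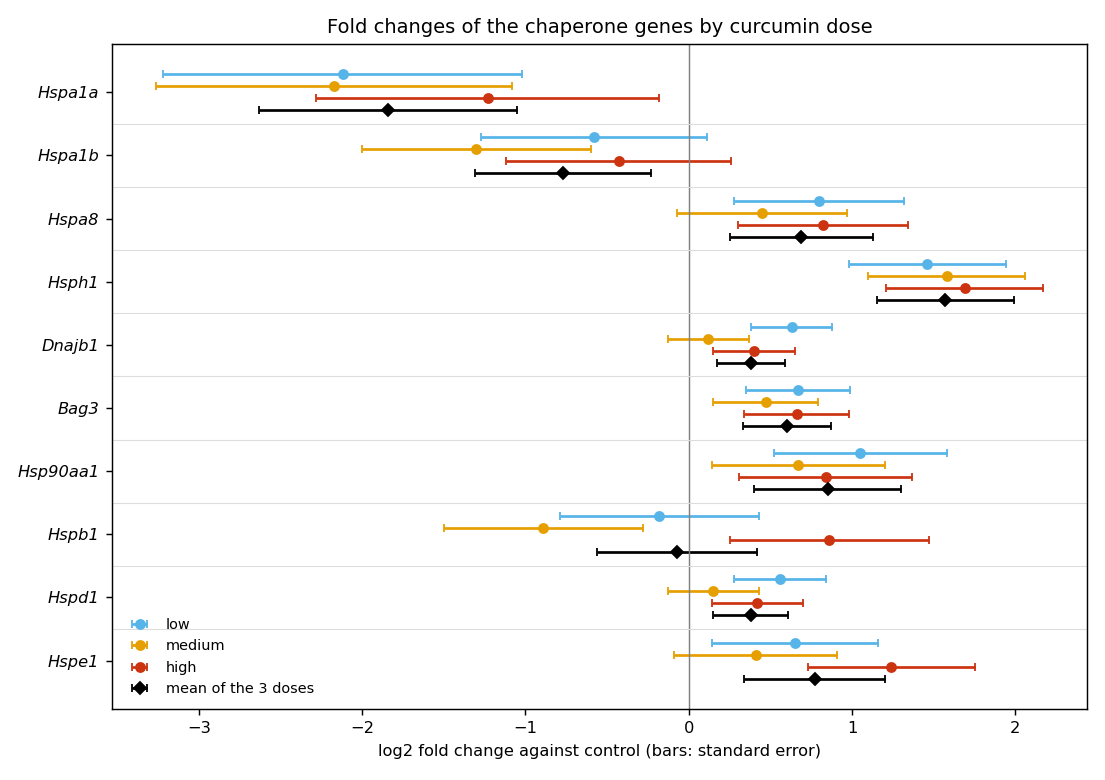
Log2 fold change against control of each chaperone gene at the low, medium and high dose and for the mean of the 3 doses; bars are standard errors (3 livers a group, 1 fit over 12 livers). Hsph1 lies between 1.46 and 1.69 at every dose, Hspa1a and Hspa1b lie below 0, and Hspb1 changes side between medium and high.

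Hsph1 (HSP110, the exchange factor that resets HSP70 and a member of its extended family) showed the clearest difference. It stood at 8.93, 6.12 and 4.79 CPM in control livers, at 14.2, 12.0 and 28.3 CPM in low, at 22.9, 17.8 and 18.5 CPM in medium and at 9.54, 38.2 and 16.2 CPM in high livers. Each of the 9 curcumin livers lay above each of the 3 controls, a pattern found in 1.06% of all tested genes (6.47% for the high livers alone), although high replicate 1 exceeded control replicate 1 by little. Hsph1 averaged 19.7 ± 8.91 CPM in curcumin livers (SD, n = 9) and 6.62 ± 2.11 CPM in control livers (SD, n = 3). The log2 fold change was 1.46 ± 0.48 (SE) at low, 1.58 ± 0.48 at medium and 1.69 ± 0.48 at high dose, with adjusted p = 0.786, 0.613 and 0.365 by edgeR's quasi-likelihood test. For the mean of the doses it was 1.57 ± 0.42, a fold of 2.98 (unadjusted p = 0.00262, adjusted p = 0.29 by edgeR).

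By DESeq2 the same mean-of-doses contrast for Hsph1 gave 1.54 with adjusted p = 0.0221, and by limma voom 1.38 with adjusted p = 0.0437, so the call depended on the tool. limma voom also called Hsph1 at the high dose, at 1.42 with adjusted p = 0.0484. Leaving out each library in turn moved the Hsph1 edgeR value for the mean of the doses between 1.33 and 1.85. At the high dose, Hsph1 was 0.96 without high replicate 2 and 2.04 without high replicate 1, and at the low dose 0.98 without low replicate 3. The separation of Hsph1 from controls rested on the scale: 8 of 9 curcumin livers lay above all controls with library totals as the scale, and 8 of 9 with totals without mitochondrial genes and copies. No difference among the doses was detected for Hsph1 (edgeR's quasi-likelihood test, unadjusted p = 0.89, adjusted p = 0.988), and the slope was 1.30 ± 0.56 log2 units over 100 mg/kg (adjusted p = 0.434 by edgeR).

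Markers of other liver cells moved with the same contrast. The summed level of 8 Kupffer cell markers was 44.6 to 62.0 CPM over the curcumin groups and 66.8 to 168 CPM in control livers, and all 8 were lower for the mean of the doses. Summed over 8 markers, neutrophil genes gave 4.76 to 9.17 CPM in curcumin livers and 10.4 to 39.6 CPM in control livers. Hepatocyte markers summed to 5950 to 47437 CPM in curcumin livers and 6443 to 12619 CPM in control livers, with 10 of 10 higher for the mean of the doses (9 of 10 without mitochondrial counts in the scale). No marker of these 3 lists was at 0 in all libraries, and none passed the adjusted threshold. Their part in the Hsph1 values was not tested.

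The stress-inducible pair Hspa1a and Hspa1b, which most cells hold at low levels until stressed, went the other way. Their transcripts are 99.2% identical over 2201 aligned bases, and no source used here says how reads that fit both were counted, so the split between them is uncertain. Hspa1a stood at 0.579, 12.0 and 3.10 CPM in control livers, at 2.65, 0.419 and 0.684 CPM in low, at 0.372, 2.62 and 0.514 CPM in medium and at 4.72, 0.963 and 0.935 CPM in high livers. Control replicate 2 held the highest level and control replicate 1 one of the lower ones, so the groups overlapped. Hspa1b followed with 2.04, 13.9 and 5.15 CPM in control, 8.19, 2.63 and 3.44 CPM in low, 2.63, 4.51 and 1.48 CPM in medium and 9.55, 3.17 and 2.88 CPM in high livers. Its highest library was again control replicate 2, with high replicate 1 next.

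The log2 fold change of Hspa1a for the mean of the doses was -1.84 ± 0.79 (unadjusted p = 0.0371, adjusted p = 0.513 by edgeR), and it was -0.33 without control replicate 2. For Hspa1b it was -0.77 ± 0.54 (adjusted p = 0.647 by edgeR), and 0.20 without that library. Summed, the pair gave -1.04 ± 0.80 at low, -1.60 ± 0.81 at medium and -0.72 ± 0.79 at high dose, and -1.12 ± 0.61 for the mean of the doses (adjusted p = 0.572 by edgeR). The ratio of Hspa1b to Hspa1a counts ran from 1.73 to 7.08 in curcumin livers and from 1.16 to 3.52 in control livers, and it was lowest in control replicate 2. Of 20 immediate early genes, which respond within minutes to handling and injury, 18 were tested, and 17 of them were lower for the mean of the doses (median log2 fold change -0.98). On library totals as the scale 13 of 18 were lower. Their part in the Hspa1a and Hspa1b values was not tested.

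**Figure D3:**
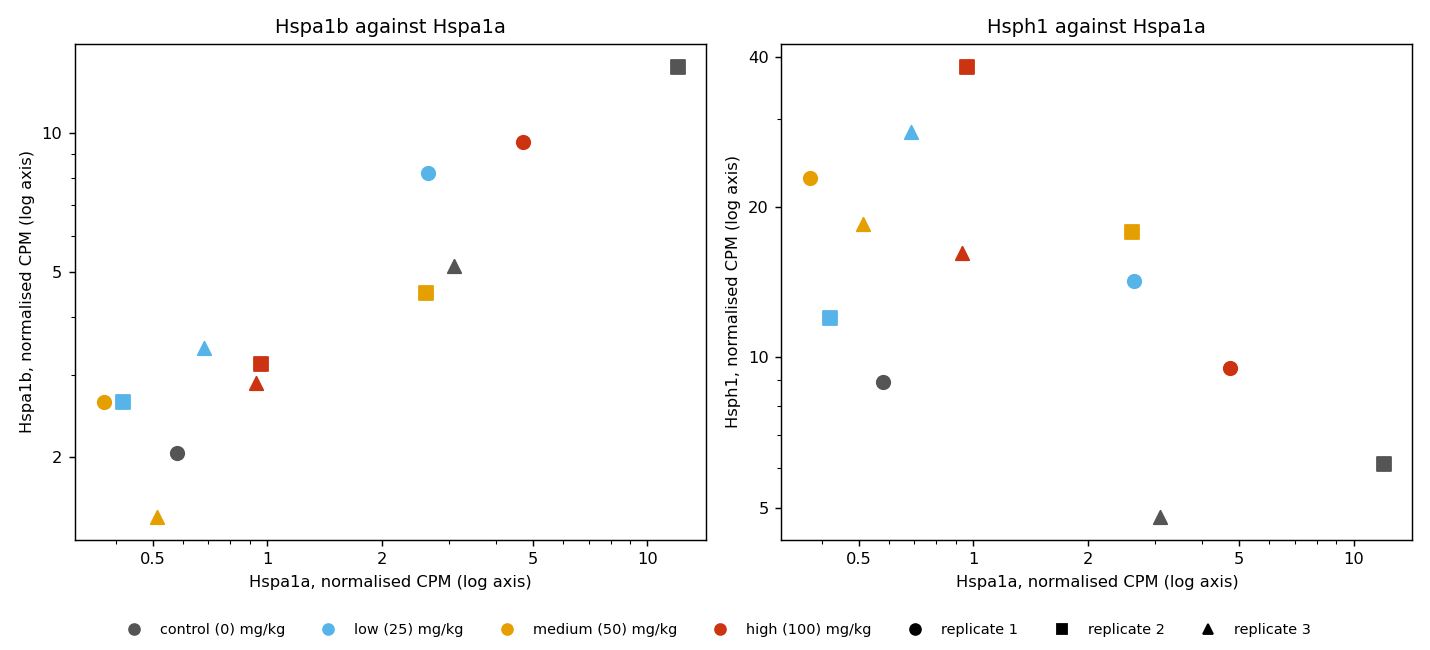
Left, Hspa1b against Hspa1a; right, Hsph1 against Hspa1a; both in normalised CPM on log axes, 1 point per liver, with colour for the curcumin dose and shape for the replicate. Hspa1b follows Hspa1a along 1 line, while the livers with most Hspa1a (control replicate 2 and high replicate 1) have 6.12 and 9.54 CPM of Hsph1, among the lowest.

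Hspa8, the constitutive HSP70, stood at 225, 197 and 129 CPM in control livers, at 251, 221 and 486 CPM in low, at 436, 152 and 167 CPM in medium and at 502, 206 and 263 CPM in high livers. Its 4 highest values were those of the 4 libraries with a mitochondrially encoded share under 50%, and the other curcumin livers overlapped the controls or lay just above them. The log2 fold change of Hspa8 was 0.80 ± 0.52 at low, 0.45 ± 0.52 at medium and 0.82 ± 0.52 at high dose (adjusted p = 0.851, 0.997 and 0.497 by edgeR). At the medium dose it was -0.20 without medium replicate 1. Of 13 near-identical copies of chaperone genes, 11 had counts, and the processed pseudogenes Gm15459 and Gm8355 had 9.84% and 6.16% of the Hspa8 counts. With copies added, the Hspa8 values were 0.83, 0.47 and 0.83.

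The co-chaperones Dnajb1, which feeds clients to HSP70, and Bag3, which couples HSP70 to autophagy, had narrow ranges. Bag3 stood at 5.34, 7.68 and 6.09 CPM in control livers, at 11.7, 9.47 and 9.26 CPM in low, at 8.94, 8 and 9.52 CPM in medium and at 7.52, 16.3 and 6.40 CPM in high livers. All low and all medium livers lay above all controls, as in 7.41% and 7.61% of all tested genes, and 1 of 3 high livers did. This depended on the scale: with library totals 2 of 3 low, 3 of 3 medium and 3 of 3 high livers lay above all controls, and without mitochondrial counts in the scale 2, 1 and 1 of 3. Bag3 averaged 9.68 ± 2.88 CPM in curcumin livers (SD, n = 9) and 6.37 ± 1.19 CPM in control livers (SD, n = 3), and the mean-of-doses log2 fold change was 0.60 ± 0.27 (unadjusted p = 0.0437, adjusted p = 0.522 by edgeR). At the high dose Bag3 was 0.66 ± 0.32, and 0.13 without high replicate 2. Dnajb1 stood at 8.78, 6.60 and 5.04 CPM in control livers, at 10.8, 9.58 and 11.2 CPM in low, at 8.41, 6.58 and 7.16 CPM in medium and at 9.51, 10.9 and 6.53 CPM in high livers. Its low livers lay above all controls, as in 7.41% of all tested genes, but 1 of 3 did with library totals as the scale, and its medium livers did not. The log2 fold change of Dnajb1 was 0.63 ± 0.25 at low, 0.12 ± 0.25 at medium and 0.40 ± 0.25 at high dose (adjusted p = 0.805, 0.997 and 0.497 by edgeR).

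Hsp90aa1, the inducible cytosolic HSP90, stood at 18.7, 11.5 and 6.22 CPM in control livers, at 16.4, 13.6 and 45.3 CPM in low, at 32.4, 13.3 and 12.2 CPM in medium and at 24.0, 24.8 and 16.6 CPM in high livers. The controls spread widely and overlapped the low, medium and high groups. Its log2 fold change was 1.05 ± 0.53 at low, 0.67 ± 0.53 at medium and 0.84 ± 0.53 at high dose (adjusted p = 0.823, 0.997 and 0.492 by edgeR). Without low replicate 3 the low value of Hsp90aa1 was 0.30, and without medium replicate 1 the medium value was 0.07.

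Hspb1 (HSP27 in human), a small heat shock protein that holds unfolded clients and acts on actin, had the smallest p of the 10 genes in the test among the doses, without passing. That test gave an adjusted p = 0.986 by edgeR's quasi-likelihood test. It stood at 2.59, 5.88 and 5.71 CPM in control livers, at 5.38, 1.48 and 5.67 CPM in low, at 3.31, 3.15 and 1.18 CPM in medium and at 12.6, 2.66 and 10.4 CPM in high livers. High replicates 1 and 3 held the highest levels, and high replicate 2 lay within the controls. The log2 fold change was -0.18 ± 0.61 at low, -0.89 ± 0.61 at medium and 0.86 ± 0.61 at high dose. At the low dose Hspb1 was 0.11 with library totals as the scale. Summed over 11 markers, stellate cell and fibroblast genes gave 53.7 to 264 CPM in high livers and 56.6 to 73.7 CPM in control livers, and 7 cholangiocyte markers gave 6.37 to 30.4 CPM in high livers and 10.6 to 13.1 CPM in control livers. Their part in the Hspb1 values was not tested.

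The mitochondrial chaperonin genes Hspd1 (HSP60) and Hspe1 (HSP10) lie head to head and share the promoter stretch shown. Hspd1 stood at 44.0, 41.2 and 35.2 CPM in control livers, at 55.0, 59.4 and 63.0 CPM in low, at 55.9, 39.0 and 38.9 CPM in medium and at 70.0, 50.7 and 40.3 CPM in high livers. Its low livers lay above all controls (7.41% of all tested genes do so, and for Hspd1 1 of 3 did with library totals as the scale) with a log2 fold change of 0.56 ± 0.28 (adjusted p = 0.823 by edgeR), while medium and high livers overlapped them at 0.15 ± 0.28 and 0.42 ± 0.28. Hspe1 stood at 20, 13.9 and 11.2 CPM in control livers, at 16.9, 18.3 and 35.4 CPM in low, at 32.8, 15.1 and 12.0 CPM in medium and at 57.0, 14.8 and 35.1 CPM in high livers. The log2 fold change of Hspe1 was 1.24 ± 0.51 at high dose (unadjusted p = 0.0305, adjusted p = 0.382 by edgeR) and 0.74 without high replicate 1, with a slope of 1.10 ± 0.45 over 100 mg/kg (adjusted p = 0.434 by edgeR). The ratio of Hspd1 to Hspe1 counts was 1.15 to 3.43 in curcumin livers and 2.2 to 3.13 in control livers. The partners therefore did not keep 1 proportion. The lowest ratios were 1.15 in high replicate 3, 1.23 in high replicate 1, 1.71 in medium replicate 1 and 1.78 in low replicate 3. Those libraries had the smallest shares of mitochondrially encoded counts. The other curcumin livers gave 2.59 to 3.43, which overlapped the controls.

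Hspe1 differed between the livers with a low and a high share of mitochondrially encoded counts. It stood at 32.8 to 57.0 CPM in the 4 libraries with a share under 50% and at 11.2 to 20 CPM in the 8 libraries above it, with no overlap. Hspa8 did likewise, at 263 to 502 CPM and 129 to 251 CPM. Such a separation, all 4 above all 8, was found in 2 of the 10 genes and in 10.5% of all 16839 tested genes. Without mitochondrial counts in the scale it held for Hspe1 and not for Hspa8, which stood at 1057 to 1733 and 609 to 1240 CPM. With library totals as the scale it held for Hspe1 and Hspa8 and also for Dnajb1, Bag3, Hsp90aa1 and Hspd1. Which genes separated therefore depended on the scale, and the share of all tested genes was computed on the TMM scale only. The 4 libraries below 50% were all from curcumin groups, and the 5 curcumin libraries above 50% had 12.0 to 18.3 CPM of Hspe1, within the control range. Because the livers fall into these clusters, no correlation over all 12 is given for them. Within the 8 libraries above 50%, Pearson's r with the share was -0.13 for Hspe1 (exact permutation p = 0.771; Spearman's rho -0.29, exact p = 0.501) and 0.23 for Hspa8 (exact permutation p = 0.574; rho 0.05, exact p = 0.935). For Bag3 it was 0.46 (exact permutation p = 0.249), and over the 10 genes, with unadjusted p, the smallest p was 0.231, for Hspd1. On the TMM scale, Bag3 and Hsph1 levels overlapped between the sets of libraries: Hsph1 stood at 9.54 to 28.3 CPM below 50% and at 4.79 to 38.2 CPM above it.

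**Figure D4:**
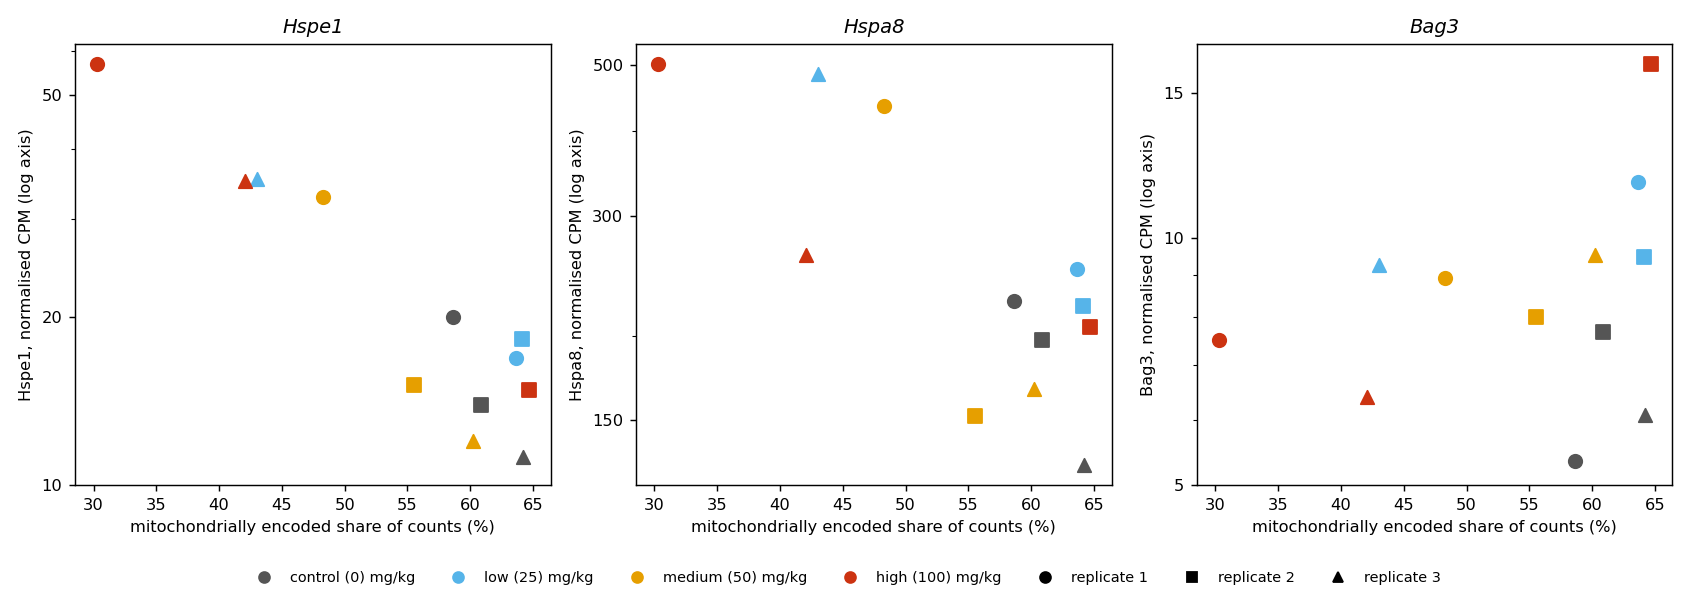
Normalised CPM (log axis) of Hspe1, Hspa8 and Bag3 against the percentage of counts on mitochondrially encoded genes, 1 point per liver, with colour for the curcumin dose and shape for the replicate. Hspe1 is at 32.8 CPM or more in the 4 libraries with a share under 50% and at 20 CPM or less in the other 8. Bag3 shows no such split on this scale, but does with library totals as the scale (11.2 to 13.9 CPM against 4.22 to 10.2 CPM).

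Across the 12 livers the 10 genes did not vary as 1 block. Group means were not removed before the correlations between genes, and libraries were permuted regardless of group. Each r and p therefore mixes differences between groups with variation between livers of the same group. Dnajb1 and Hspd1, for instance, both averaged lowest in control (6.81 and 40.1 CPM) and highest in low livers (10.5 and 59.2 CPM). Of the 45 pairs, 30 had a positive Pearson's r of log2 CPM, with a median of 0.34, and 7 had an adjusted p under 0.05 by permutation over the 45 pairs, 6 of them also by Spearman's rho. Hspa1a and Hspa1b gave r = 0.93 (permutation p = 1e-05, the lowest value possible with these permutations; adjusted p = 0.00045; rho 0.91, permutation p = 0.00014, adjusted p = 0.00315), and r = 0.83 without the 2 libraries farthest from the Hspa1a median. Reads counted for both genes would enter both values. Dnajb1 and Hspd1 gave r = 0.84 (permutation p = 0.00121, adjusted p = 0.0109; rho 0.78, permutation p = 0.00394, adjusted p = 0.0355), and r = 0.85 without the 2 farthest libraries.

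Hspa8, Dnajb1, Hspd1, Hsp90aa1 and Hspe1 varied together in part, with differences between groups left in the values. Since Hspa8 and Hspe1 separate the libraries by the mitochondrial share, r is given within the 8 libraries above 50%, with unadjusted exact p: 0.80 for Hspa8 with Hspe1 (exact permutation p = 0.0197; rho 0.79, exact p = 0.0279), 0.84 for Hspa8 with Hspd1 (exact permutation p = 0.00945; rho 0.86, exact p = 0.0107), 0.89 for Hspa8 with Dnajb1 (exact permutation p = 0.00399; rho 0.81, exact p = 0.0218) and 0.74 for Hspa8 with Hsp90aa1 (exact permutation p = 0.0325; rho 0.74, exact p = 0.0458). In the same 8 libraries Dnajb1 gave 0.90 with Hspd1 (exact permutation p = 0.00322; rho 0.83, exact p = 0.0154), 0.88 with Hsp90aa1 (exact permutation p = 0.00288; rho 0.86, exact p = 0.0107) and 0.70 with Hspe1 (exact permutation p = 0.0569; rho 0.52, exact p = 0.197). The remaining pairs of these genes had an exact permutation p above 0.05 for r. Hspd1 gave 0.70 with Hspe1 (exact permutation p = 0.057, rho 0.762 with exact p = 0.0368). With Hsp90aa1, Hspd1 gave 0.62 (exact permutation p = 0.0937) and Hspe1 gave 0.655 (exact permutation p = 0.0712). Also in these 8, Hspb1 gave 0.87 with Hspa1a (exact permutation p = 0.00417, rho 0.976) and 0.88 with Hspa1b (exact permutation p = 0.00508, rho 0.952). Over 12 livers these were 0.59 and 0.66 (adjusted permutation p = 0.132 and 0.0739), with rho 0.678 and 0.755 (adjusted permutation p = 0.0759 and 0.0366). Hsph1 gave r = 0.69 with Bag3 over 12 livers (permutation p = 0.0124, adjusted p = 0.0557), which misses the threshold, and 0.52 without the 2 libraries farthest from the Bag3 median. By rho Hsph1 gave 0.67 with Bag3 (permutation p = 0.0202, adjusted p = 0.0759), and within the 8 libraries r = 0.81 (exact permutation p = 0.0162). Its r with Hspa1a was -0.57 (permutation p = 0.0529, adjusted p = 0.132; rho -0.50, permutation p = 0.105, adjusted p = 0.295), and -0.61 without the 2 farthest libraries.

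**Figure D5:**
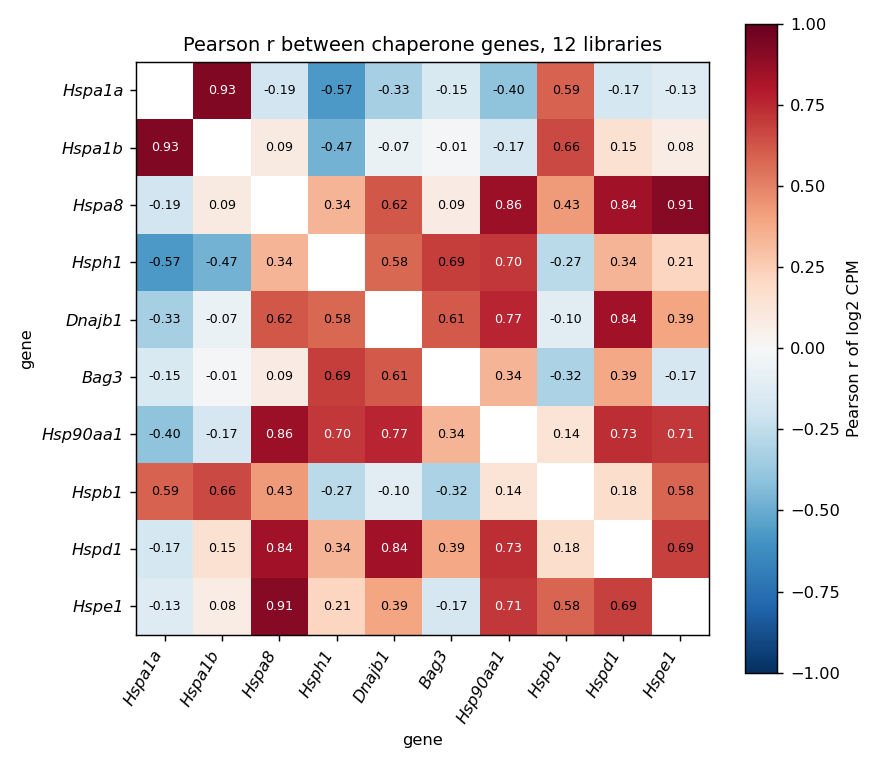
Pearson's r of log2 CPM over the 12 livers for each pair of chaperone genes (colour from -1 to 1, value in each cell). The pair Hspa1a and Hspa1b stands at 0.93 and has negative or near-zero values with the others except Hspb1. The pairs among Hspa8, Hsp90aa1, Hspd1 and Hspe1 stand at 0.69 to 0.91, with Dnajb1 at 0.39 to 0.84 with these 4. Hspa8 and Hspe1 separate the libraries by the mitochondrial share, and their values here include that split. Group means were not removed.

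The genes most alike to each chaperone over the 12 livers were searched among 9096 named genes whose log2 CPM averaged 1 or more, and r is given as a description with no test. For Hspa8 they were Fkbp4, an HSP90 co-chaperone (r = 0.97), Pafah1b2 (r = 0.96) and the translation initiation gene Eif2s2 (r = 0.96). Hsp90aa1 had Dnaja1, a J-domain partner of HSP70 (r = 0.94), Caprin1 (r = 0.93) and Imp4 (r = 0.89). Hspd1 had Pid1 (r = 0.95), Agpat2 (r = 0.94) and Cct4, a subunit of the cytosolic chaperonin TRiC (r = 0.93). Dnajb1 had Pkdcc (r = 0.93), Cct4 (r = 0.89) and Slc25a25 (r = 0.84). Hsph1 was most alike to Hnf4a (r = 0.93), a hepatocyte transcription factor, Mbd1 (r = 0.92) and Noct (r = 0.91). Bag3 had Tesk1 (r = 0.92) and Upf3a (r = 0.90). For Hspb1 they were Anxa1 (r = 0.93), the bile duct keratin Krt19 (r = 0.92) and the collagen gene Col6a2 (r = 0.91). Hspe1 was most alike to Sugt1 (r = 0.99), Gabarap (r = 0.99) and Tomm7 (r = 0.99), a part of the mitochondrial import channel. For Hspe1 and Hspa8, r over 12 livers cannot be told apart from the split by the mitochondrial share, found in 10.5% of all tested genes. Piezo1, a channel opened by membrane stretch, led for both Hspa1a (r = 0.90) and Hspa1b (r = 0.86), followed by Nrros (r = 0.85) and Map4k4 (r = 0.84) for Hspa1a and by the haem oxygenase gene Hmox1 (r = 0.85) and Zfp652 (r = 0.82) for Hspa1b.

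Of 5 heat shock factors and their regulators, 1 was higher and 4 were lower for the mean of the doses (3 and 2 with library totals as the scale), and none passed the adjusted threshold. Hsf1, the factor that drives the stress response, averaged 14.6 ± 4.35 CPM in curcumin livers (SD, n = 9) and 16.0 ± 1.61 CPM in control livers (SD, n = 3), a log2 fold change of -0.14 ± 0.26 (values after ± beside fold changes are SE throughout). Hsf2 gave -0.08 ± 0.26. RNA levels do not report the activity of these factors. Ier5, a regulator of HSF1, gave -0.62 ± 0.27 and Hsbp1, an HSF1-binding protein, 0.67 ± 0.43.

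Among 11 other HSP70 and HSP90 family genes, 8 were higher and 3 lower for the mean of the doses (median log2 fold change 0.28), and 0 passed. Without mitochondrial counts in the scale they were 7 and 4. The constitutive Hsp90ab1 gave 0.46 ± 0.30, the Hsph1 relatives Hspa4 and Hspa4l 0.28 ± 0.19 and 0.46 ± 0.24, and Hspa13 1.04 ± 0.44. Testis-enriched Hspa2 averaged 0.589 ± 0.265 CPM in curcumin livers (SD, n = 9) and 0.317 ± 0.0431 CPM in control livers (SD, n = 3), a log2 fold change of 0.82 ± 0.38. Of 29 HSP70 and HSP90 co-chaperones, 20 were higher and 9 lower (median 0.25), and 16 and 13 on the scale without mitochondrial counts (median 0.05). Fkbp5, an HSP90 partner of the glucocorticoid receptor, averaged 60.2 ± 30.7 CPM in curcumin livers (SD, n = 9) and 19.2 ± 3.25 CPM in control livers (SD, n = 3), a log2 fold change of 1.58 ± 0.49 (unadjusted p = 0.00654, adjusted p = 0.327 by edgeR). Fkbp4 gave 0.80 ± 0.34, Stip1, which bridges HSP70 and HSP90, 0.73 ± 0.29, the HSP90 activator genes Ahsa1 and Ahsa2 0.71 ± 0.27 and 0.17 ± 0.31, Chordc1 0.55 ± 0.27, Dnaja1 0.52 ± 0.29 and Dnajb4 0.45 ± 0.21.

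Of 9 small heat shock protein genes besides Hspb1, 5 were tested, of which 4 were higher and 1 was lower (median 0.62). Hspb8, a Bag3 partner, gave 0.45 ± 0.32, Hspb6 0.67 ± 0.45, and Cryab 0.62 ± 0.45 for the mean of the doses but 1.73 ± 0.54 at the high dose (adjusted p = 0.371 by edgeR). All 14 genes of TRiC and prefoldin, which fold actin and tubulin, were higher for the mean of the doses (median 0.51), also with library totals (0.99) and without mitochondrial counts (0.30) as the scale, against 0.42 and -0.17 over all tested genes. The 10 hepatocyte markers, all higher with a median of 0.72 in the same contrast, moved with them, and their part was not tested. Cct5 gave 0.57 ± 0.22, Cct2 0.53 ± 0.26 and Cct3 0.43 ± 0.18, and none passed the adjusted threshold. Of 18 tested mitochondrial folding and protease genes, 15 were higher and 3 lower (median 0.16), but 9 and 9 without mitochondrial counts in the scale. On the TMM scale Dnaja3 gave 0.79 ± 0.29 and Clpp 0.79 ± 0.35, while Hspa9, the mitochondrial HSP70, gave 0.19 ± 0.20, Trap1 0.35 ± 0.25 and Lonp1 0.01 ± 0.21.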

How the data were processed

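The deposited table holds whole-number gene counts per library, not normalized by the authors, and all its columns matched a label (0 left over). Per the submitters' processing notes, fastp 0.23.4, STAR 2.7.10b and StringTie 2.2.1 were used with the mm39 build; no source used here says which step made the counts or how strand and reads fitting several genes were handled. GENCODE M21 named 52073 of the 56923 IDs (91.5%). That annotation and the RefSeq windows (GRCm38.p6) are of another build and served for names, lengths, copies and sequences. Copies were taken at 95% identity over 80% of the length (BLAST+ 2.17.0).

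Counts were tested with edgeR 4.0.16 in R 4.3.3 (filterByExpr, TMM, robust quasi-likelihood fit of all 12 libraries, Benjamini-Hochberg over 16839 genes, threshold 0.05). Standard errors were computed from each F statistic and its log2 fold change. The mean of the doses weighs the 3 dose groups equally, and the slope is over 100 mg/kg. A count floor of 3 corresponds to 0.0426 to 0.0833 CPM of a library's total. On the TMM scale of the levels given here it is 0.0278 (high replicate 1) to 0.117 CPM (low replicate 1). This floor covers counting error only. Correlations used log2 CPM (prior count 2) and 100000 permutations, or all of them for 8 libraries. The planned adjustment of the correlations with the mitochondrial share over the 10 genes was replaced by one over all genes tested. Those adjusted values, over 12 libraries, are not given, and every p printed for 8 libraries is unadjusted. Libraries of a group differed far beyond sampling noise (lowest chi-square over its degrees of freedom 42), and nothing states separate batches. The labels call samples biological replicates. Deviations of same-numbered replicates from their group means gave mixed correlations (-0.257 to 0.445). Numbers were not used as pairs in the main fit, and a fit with the number as a block is among the alternatives.

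On simulated counts with known changes the low comparison found 6% of the genes changed by 2-fold, 79% at 4-fold and 95% at 8-fold, and made 7 false calls among 16116 genes. The medium comparison found 13%, 84% and 94% (5 false among 16140), and the high one 3%, 84% and 100% (9 false among 16152). Changed genes were picked above a minimum level, and each gene varied independently around a common mean. Variation shared between genes, such as the split by mitochondrial share, was not simulated, so recovery in these data may differ.

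The members, the 9 pathway and 10 marker lists, the named genes (all members, a fixed set of partners, the 2 per list with the smallest p for the mean of the doses, and the 3 most alike genes per member, of which 1 is not reported here) and the tests were chosen with earlier results of these data known. Alternatives were DESeq2 1.42.0 and its size factors, limma 3.58.1 voom with library weights, no filter, 2 other scales, a replicate block, the pair Hspa1a and Hspa1b summed, copies added and each library left out. Splits at 50% mitochondrial share, and leaving out control replicate 2 with high replicate 1, were added after the values were seen.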

Additional observations from a re-analysis of the deposited data

How the results depend on the processing

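Under the alternatives, 1194 values of single genes and correlations kept their direction and side of the threshold, 33 changed sign and 3 (Hsph1) passed it. Counts of calls under edgeR were 0, while DESeq2 gave 42 for low, 89 for medium, 172 for high, 165 for the mean of the doses, 64 for the slope and 16 among the doses, and limma voom 35 for medium, 224 for high and 66 for the mean of the doses. No filter on low counts gave 3 for the mean of the doses, and leaving out control replicate 2 with high replicate 1 gave 1. Of the 10 genes, 1 (Hsph1) was called by DESeq2 for the mean of the doses and by limma voom for high and for the mean of the doses. With 1 library left out, calls ranged from 0 to 2 for low, 0 to 1 for the mean of the doses and 0 to 4 among the doses. With the replicate block, 0 genes were called in every comparison, the members' medians were 0.68, 0.23, 0.63 and 0.50 for low, medium, high and the mean of the doses, and no call changed; 6 of 12 libraries correlated best with a library of their own number. With library totals as the scale, Hspb1 was 0.11 at low and 0.53 for the mean of the doses, and Hspa1b 0.35 at high and 0.47 for the slope. Without mitochondrial genes and copies in the scale, the slopes of Hspd1 and Dnajb1 were -0.045 and -0.036. Without control replicate 2 and high replicate 1, Hspb1 at low was 0.007, Hspa1b at low 0.38 and the Hspd1 slope -0.064, the lower end of a range up to 0.41 with libraries left out. The cause was not tested. With 1 library left out, at low Hspb1 ran from -0.49 to 0.22 and Hspa1b from -1.22 to 0.39; at medium Hspd1 from -0.039 to 0.24, Hspe1 from -0.15 to 0.67, Dnajb1 from -0.057 to 0.34 and Hspa8 from -0.20 to 0.70; at high Hspa1b from -1.22 to 0.54 and Hspa1a from -2.47 to 0.27. For the mean of the doses Hspb1 ran from -0.36 to 0.12 and Hspa1b from -1.21 to 0.20, and for the slope Hspa1b from -1.30 to 0.39 and Hspa1a from -2.42 to 0.52. Each upper end of Hspa1a and Hspa1b came without control replicate 2. Over all 12 libraries, r with the mitochondrial share was -0.0355 for Hspa1a, -0.128 for Hspa1b, -0.138 for Hsph1, -0.143 for Dnajb1 and -0.471 for Hspd1. Without the 2 libraries farthest from the median share, r changed sign to 0.325 for Hspa1a and 0.196 for Hspa1b. Without mitochondrial counts in the scale, r was 0.0978 for Hspa1a, 0.0948 for Hspa1b, 0.108 for Hsph1, 0.452 for Dnajb1 and 0.269 for Hspd1. On the simulated counts, with 3 livers a group, changes of 2-fold were mostly below what the test could call.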

Other observations

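Chaperones of the endoplasmic reticulum, which fold secreted proteins and answer to another stress pathway than HSF1, were higher in curcumin livers in 17 of 17 genes for the mean of the doses (50.9% of all tested genes were), with a median log2 fold change of 0.85 against 0.01 over all genes, and 0 passed the adjusted threshold of edgeR's quasi-likelihood test (5 of 17 had an unadjusted p under 0.05, against 9.37% of all tested genes). By dose, 16 of 17 were higher at low, 16 of 17 at medium and 17 of 17 at high, with medians of 0.63, 0.73 and 0.97. With totals without mitochondrial genes and copies as the scale, 16 of 17 were higher for the mean of the doses (median 0.59), and with library totals 17 of 17 (median 1.30). Manf, a secreted protein of this stress response, averaged 13.6 ± 7.65 CPM in curcumin livers (SD, n = 9) and 4.57 ± 2.34 CPM in control livers (SD, n = 3), a log2 fold change of 1.55 ± 0.52 (adjusted p = 0.377 by edgeR). Herpud1, of the degradation machinery of that compartment, gave 0.89 ± 0.28, the HSP70 of the reticulum, Hspa5, 0.85 ± 0.35, and its HSP90, Hsp90b1, 0.35 ± 0.28. The hepatocyte markers, also higher in 10 of 10 with a median of 0.72 (9 of 10 without mitochondrial counts in the scale), moved with them, and their part was not tested.

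The immediate early genes Egr1 and Fos were lower for the mean of the doses. Egr1 averaged 4.26 ± 2.36 CPM in curcumin livers (SD, n = 9) and 14.5 ± 7.96 CPM in control livers (SD, n = 3), with all 9 curcumin livers below all 3 controls, a pattern in 1.2% of tested genes, and a log2 fold change of -1.91 ± 0.30 (adjusted p = 0.117 by edgeR). Fos gave -2.52 ± 0.42 (adjusted p = 0.157 by edgeR), with curcumin and control livers overlapping, and -1.14 ± 0.56 at the high dose. At that dose 12 of the 18 tested immediate early genes were lower (median log2 fold change -0.31). With library totals as the scale, 13 were higher and 5 lower at the high dose (median 0.37). The cold-inducible RNA-binding protein genes Cirbp and Rbm3 gave -0.28 ± 0.23 and 0.09 ± 0.21.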
